A study of Mus musculus with 70 samples.

Results

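The 10 genes described here encode proteins that bind, bundle or move actin. Thymosin beta 4 (Tmsb4x) and thymosin beta 10 (Tmsb10) bind actin monomers. L-plastin (Lcp1) and T-plastin (Pls3) bundle filaments. Acta2 (smooth muscle alpha-actin), Tagln (transgelin), Cnn1 (calponin 1) and Myl9 (a myosin regulatory light chain) belong to the contractile apparatus, and Tpm1 and Tpm2 are tropomyosins, which run along the filament. A probe was assigned to the set where its gene name or RefSeq transcript was one of these genes, which gave 17 of the 55681 probes and 10 of the 21154 gene symbols on the array. Tmsb4x and Lcp1 were chosen by their measured levels, which rose strongly from the parental line. Their levels from P0 onwards are therefore a description, and no test is given for them in any comparison of P0, P3 and P6.

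The cells were RENCA, a mouse renal carcinoma line of BALB/c origin, that carried Green Fluorescent Protein (GFP) from a lentiviral vector. The parental line (P0) was passaged through 6-week-old female BALB/c mice in 6 cycles by 3 routes. KPT lines came from kidney tumours after injection under the renal capsule, K-LM lines from the lung metastases of such kidney tumours, and T-LM lines from lung colonies after tail vein injection. The comparisons ask how transcript levels changed as the lines were passaged, and how the routes differed. All groups, P0 included, carried GFP, and no other genetic change is named for any of them. Per the methods, tissue was digested and the cells were cultured before the next injection, and purity was judged by GFP, whereas the sample labels describe homogenised samples. Several mice were used per route and passage, whether a line was 1 clone is not stated, and the labels do not tie a line to its parent. P-values then rest on the spread between RNA samples within groups, pooled over all groups of a fit. Samples of a group may share ancestors.

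RNA from 65 samples was hybridised to 70 one-colour Agilent mouse arrays. There were 2 samples at P0, 5, 2, 2, 3, 5 and 5 in KPT from P1 to P6. For the same passages T-LM was represented by 5, 2, 3, 4, 6 and 4 samples, K-LM by 1, 1, 5, 3, 4 and 3. The share of probes well above background ran from 25.3% to 55.3% per array, with a median of 33.0%. A level is the log2 signal of a gene's brightest probe minus the 75th percentile of the array, taken over the 12219 probes well above background on every array. A level of 0 thus equals that percentile, levels of different genes are not comparable, and precision is limited by how many arrays a group has. A gene was called where limma's Benjamini-Hochberg adjusted p was 0.01 or less over all probes tested. All 3 K-LM P6 samples lay on a later slide, which was scanned apart from the other 62 arrays and also carried second arrays of both P0 samples and of 3 KPT P6 samples. Comparisons with K-LM P6 used these 5 repeats and a term for that slide. On the repeats none of the 10 genes was called as different (7 of 20775 probes were), but Tmsb10 was lower by 0.26 to 0.64 in all 5 RNA samples. Tagln was lower by 1.53 and 2.13 in P0 but higher by 0.13 to 0.35 in the 3 KPT P6 samples. A single slide term does not describe both.

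Actin monomers and filaments exchange constantly in a living cell. Beta-thymosins hold monomers in reserve, plastins and tropomyosins shape and stabilise filaments, and the contractile genes are known as targets of serum response factor with its actin-sensing cofactors, with high expression in smooth muscle and activated fibroblasts. Lcp1 is best known from leukocytes, and Pls3 from epithelial and other solid tissues.

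The label of the cells was checked against fixed marker lists. The renal epithelial markers Krt8, Krt18 and Pax8 were well above background in 65 of 65 samples, whereas Pax2 was so in 0, and Cdh1 and Epcam in 7 and 4. None of 9 fibroblast markers (Pdgfra, Pdgfrb, Dcn, Lum, Col1a1, Col1a2, Col3a1, Thy1 and Fap) was well above background at P0. At P6, KPT samples had 5 to 7 of the 9, T-LM samples 8 to 9 and K-LM samples 6 to 8. Of 8 vascular smooth muscle markers, Smtn and Mcam were detected in 65 samples, Des in 61, Cnn1 in 60, Actg2 in 49, Notch3 in 12, Myh11 in 4 and Lmod1 in 0. Of 12 leukocyte markers, Cd68, Csf1r and Cd3e were detected in 65 samples, P0 included, Coro1a in 52, Fcer1g in 38, Tyrobp in 36, Ptprc in 12 and Cd79a in 0, with the remaining 4 in 13 to 29. Of 6 lung epithelial markers, Scgb1a1 was detected in 43 samples, which included all P6 samples, and Sftpc in 6, which included 4 of 4 T-LM P6 samples, and the remaining 4 in 1 to 5.

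Tmsb4x was near background at P0 and at higher levels in most passaged lines, without a steady course. Its level was -8.48 and -8.18 in the P0 samples, on both of which the probe was not well above background. At P1 it already reached -2.03 to 2.64 in KPT, 0.21 to 1.61 in 4 of 5 T-LM samples and 2.12 in the K-LM sample. T-LM P1 replicate 1, at -7.30, was not well above background. The title of this sample gives no route, and it was placed in T-LM by another label, so its group is less sure than that of the other samples.

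Most P2 and P3 samples had less Tmsb4x than those of P1. The KPT levels were -8.97 and -5.12 at P2 and -8.45 and -5.22 at P3, and T-LM P3 was at -6.64, -5.68 and -1.14. K-LM P3, between -4.79 and -0.69, was above both KPT P3 samples and overlapped with T-LM P3. The routes overlapped at P4 and P5, and some samples stood apart. KPT P4 was at 1.37, 0.20 and -9.07, so that 1 of these 3 samples was at background. KPT P5 split into replicates 1 and 2, at 3.72 and 3.64, and replicates 3 to 5, at -1.35, -2.58 and -1.47.

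At P6 the KPT samples of Tmsb4x lay closer together than at P4 and P5. They were between -2.18 and -1.40 (mean -1.72 ± 0.334 SD, n = 5), T-LM between 1.59 and 2.88 (2.08 ± 0.612, n = 4), and K-LM was at -2.02, -1.70 and 0.53 (-1.06 ± 1.39, n = 3). T-LM P6 did not overlap with KPT P6 or K-LM P6, while KPT P6 and K-LM P6 overlapped. Because P0 was below detection, the rise can be given only as a bound, the P6 mean against the lowest signal that was well above background on each P0 array or the probe's own, whichever was higher. It was at least 312-fold in T-LM, at least 35.4-fold in K-LM and at least 22.5-fold in KPT. On the late slide too, neither P0 array was well above background for Tmsb4x. Ordered by mean level, K-LM P1, T-LM P6 and T-LM P4 came first, at 2.12, 2.08 and 1.79, within the spread of T-LM P6. KPT P3, KPT P2 and P0 came last, at -6.84, -7.04 and -8.33, and their samples overlapped or lay at background. In bulk RNA, fewer cells of a type and less RNA per cell cannot be told apart, which holds for every level given here.

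Tmsb10, the close relative of Tmsb4x, was bright everywhere and moved little. Its group means ran from 2.70 in the single K-LM P2 sample to 4.12 in T-LM P5, and P0 was at 3.09 and 2.77. No P0 to P6 or P3 to P6 change of Tmsb10 was called. The comparison that separated it was at P5. KPT P5 lay between 2.60 and 3.42 (median 3.15, n = 5), T-LM P5 between 4.00 and 4.27 (median 4.11, n = 6) and K-LM P5 between 3.89 and 4.07 (n = 4), so that every lung-derived sample was above every KPT sample.

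Tmsb10 was higher in T-LM P5 than in KPT P5 by 1.04 ± 0.15 (SE, log2; adjusted p = 0.000702 with limma), and in K-LM P5 by 0.92 ± 0.16 (adjusted p = 0.00165). T-LM P5 and K-LM P5 differed by less, with an adjusted p of 0.651. It was the only one of the 10 genes called in either KPT comparison at P5, where 5.27% of all probes were called against T-LM and 7.41% against K-LM. Between T-LM and K-LM at P5, 0 of 10 genes were called and 3.43% of probes. In the fit with an RNA length index as a covariate, the K-LM difference was 0.68 with adjusted p = 0.0478. This index, the median level of 16 very long mRNAs minus that of ribosomal protein mRNAs, ran from -8.42 to -6.81 in KPT P5, -8.65 to -7.12 in T-LM P5 and -9.46 to -8.08 in K-LM P5, and its part in the Tmsb10 difference was not tested further.

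Lcp1 rose from P0 in all 3 routes and, unlike Tmsb4x, approached a similar level by P6. Its P0 levels were -7.46 and -8.09, not well above background on the first arrays. On the late slide P0 replicate 1 was measurable at -7.25, and replicate 2 was not. In KPT the group means were -2.31, -3.32, -1.87, -0.82, -0.98 and -0.71 from P1 to P6, and in T-LM they were -4.84, -4.51, -3.05, -2.05, -1.14 and -1.06. K-LM went from -5.21 in its single P1 sample to between -1.19 and -0.88 in the 3 samples of P6. The T-LM and K-LM means thus increased at every passage, and the KPT means did not.

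Lcp1 samples at P6 lay between -0.93 and -0.24 in KPT and between -1.27 and -0.71 in T-LM, which both overlapped with K-LM. Against the first P0 arrays the rise was at least 45.3-fold in KPT and at least 35.5-fold in T-LM. A second Lcp1 probe, dimmer, gave smaller P0 to P6 differences on the log2 scale. They were 4.99, 4.64 and 5.60 in KPT, T-LM and K-LM, against 7.07, 6.71 and 7.01 for the brightest. In the order of means KPT P6, KPT P4, KPT P5, K-LM P6, T-LM P6 and T-LM P5 came first, between -0.71 and -1.14, and these neighbours overlapped in their samples. K-LM P1, at -5.21, and P0, at -7.77, came last.

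At P1 the Lcp1 level was -3.55 to -1.12 in KPT and -5.91 to -3.09 in T-LM, with 5 samples each. The difference of -2.53 ± 0.55 (T-LM minus KPT, log2) had an adjusted p of 0.169 with limma and was not called. None of the 10 genes was called in that comparison, in which 0.0173% of probes (4 of 23172) were called and 2362 had an unadjusted p under 0.05. The summed leukocyte markers were at 1.95 to 2.44 in KPT P1 and 1.64 to 2.37 in T-LM P1, with 6 to 11 and 3 to 9 of 12 markers well above background. That sum adds signals, so bright markers carry it. Cd68 averaged 0.91 at P0 and 1.77, 0.99 and 1.43 in KPT, T-LM and K-LM at P6. Every other leukocyte marker averaged -2.27 or lower in these groups, so the sum there mostly reflects Cd68. Over all 65 samples Lcp1 correlated with the sum at r = 0.303, and at r = 0.477 as deviations from group means. The part of these markers in the Lcp1 level was not tested.

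Pls3 was detected in 65 of 65 samples and stayed within narrow limits, with group means from -1.15 in K-LM P3 to 0.18 in K-LM P4 and P0 at -0.48 and -0.52. Its P0 to P6 change was called in none of the routes. From P3 to P6 it rose in K-LM, where the P3 samples ran from -1.73 to -0.50 and the P6 samples from -0.06 to 0.04, a fitted change of 1.00 ± 0.25 (adjusted p = 0.00893). This was the only gene of the 8 called there, beside 5.87% of all probes. The call was lost without any of the K-LM P6 replicates or without K-LM P3 replicate 4 or 5 (0 of 8 genes called each), and the change was 0.42 (adjusted p = 0.399) with the RNA length index as a covariate. A second Pls3 probe gave 0.85 and was not called (adjusted p = 0.0416). Over 65 samples Pls3 correlated with this index at r = 0.73. The index was -9.30 to -7.33 in K-LM P3 and -6.48 to -6.34 in K-LM P6, and its part in the change was not tested further.

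**Figure D1:**
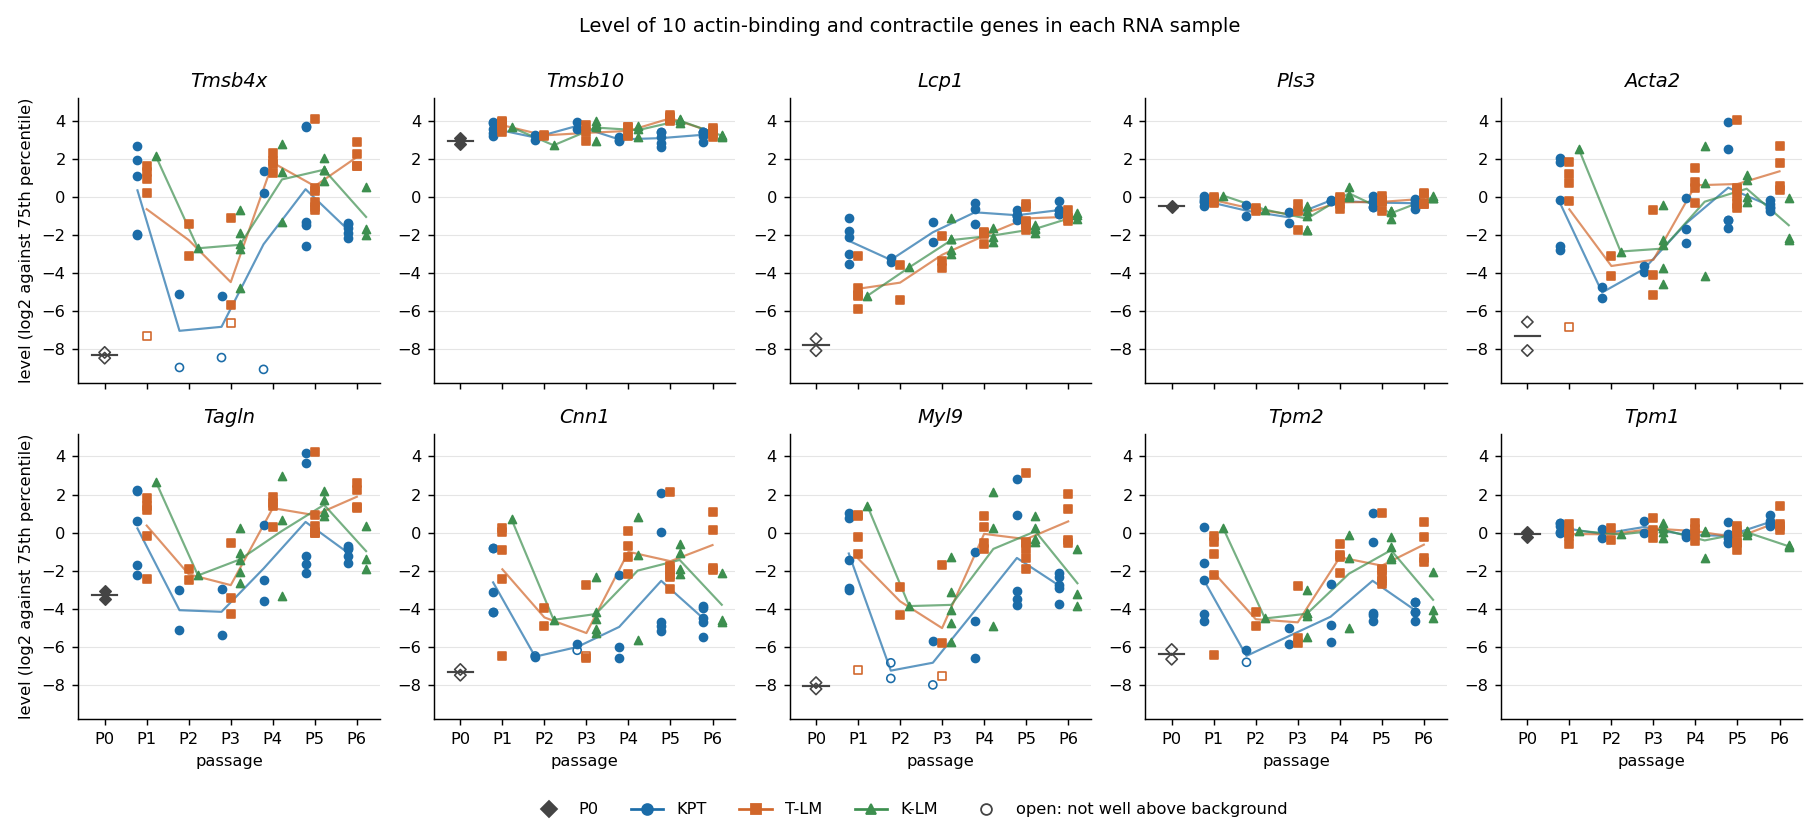
Level of each gene (log2 signal against the 75th percentile of the array, vertical axis) by passage (horizontal axis), with 1 point per RNA sample on its first array, lines through the group means of KPT, T-LM and K-LM, and open points where the probe was not well above background. Tmsb4x, Acta2, Tagln, Cnn1, Myl9 and Tpm2 vary together, with low group means at P2 and P3 and wide spread in KPT and T-LM at P5, Lcp1 climbs to between -1.27 and -0.24 in every P6 sample, and Tmsb10, Pls3 and Tpm1 stay in narrow bands.

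The contractile genes Acta2, Tagln, Cnn1 and Myl9 and the tropomyosin Tpm2 were all called as higher at P6 than at P0 in T-LM, while in KPT only Acta2 and in K-LM only Acta2 and Myl9 were called. Acta2, Cnn1, Myl9 and Tpm2 entered these fits through the passaged lines, since the first P0 arrays did not measure them. Tpm2 in K-LM was an exception, since the repeat P0 arrays in that fit measured it. The other p-values of these genes from P0 describe genes that the filter kept for being high later. Acta2 was at -6.58 and -8.08 at P0, not well above background on the first arrays. It lay between -0.75 and -0.18 in KPT P6, between 0.34 and 2.67 in T-LM P6, and at -2.27, -2.17 and -0.06 in K-LM P6, so that every P6 sample was above both P0 samples. Against P0 this was at least 52.6-fold in KPT (adjusted p = 0.000966 with limma) and at least 186-fold in T-LM (adjusted p = 3.03e-05). In K-LM, where 1 of 4 P0 arrays measured it, the fitted change was 5.84 ± 1.17 (adjusted p = 0.0013). Acta2 was thus the only one of the 8 genes called in all 3 routes. Without P0 replicate 2 its adjusted p was 0.038 in KPT and 0.0576 in K-LM, and without K-LM P6 replicate 3 it was 0.0126 in K-LM.

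The promoter window around the Acta2 start, on chromosome 19 of GRCm38.p6 as given by RefSeq, holds 2 CArG boxes, the site bound by serum response factor, with 1 mismatch in the centre. The Myl9 window on chromosome 2 holds 1 exact box and 1 with a mismatch. Among the genes searched, only Acta2 and Myl9 had such boxes in their windows, and the capitals mark the box:
Acta2, chr19:34255438-34255467, minus strand: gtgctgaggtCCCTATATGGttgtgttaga
Acta2, chr19:34255388-34255417, minus strand: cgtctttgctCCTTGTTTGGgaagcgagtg
Myl9, chr2:156775293-156775322, plus strand: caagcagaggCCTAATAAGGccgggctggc
Myl9, chr2:156775355-156775384, plus strand: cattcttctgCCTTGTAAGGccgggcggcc
An exact box was in 1.63% of all 32851 windows and a box with at most 1 mismatch in the centre in 9.98%. No window of Tmsb4x, Tmsb10, Lcp1, Pls3, Cnn1, Tpm1 or Tpm2 held either, and that of Tagln was not used here. The MCAT element CATTCC, searched on both strands, was in the windows of Acta2 and Tpm1, in 1 of 2 of Lcp1 and in 3 of 3 of Pls3, against 14.7% of all windows. A match describes the letters and shows no binding.

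Myl9, which correlated with Acta2 at r = 0.951 over 65 samples, fell closer to background in KPT at P2 and P3, at -7.66, -6.84, -8.00 and -5.67, where Acta2 lay between -5.31 and -3.62. It was at -7.88 and -8.21 at P0, not well above background, and between -3.77 and -2.10 in KPT P6, between -0.55 and 2.05 in T-LM P6, and at -3.24, -3.86 and -0.88 in K-LM P6. The rise was at least 111-fold in T-LM (adjusted p = 0.000126). In KPT it was at least 10.8-fold but was not called (adjusted p = 0.0567), and in K-LM the fitted change of 5.49 ± 1.24 was called (adjusted p = 0.00416, with 1 of 4 P0 arrays measurable). The K-LM call of Myl9 was lost without either P0 sample or without K-LM P6 replicate 3, with which the K-LM count fell to 0 or 1 of 8.

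Cnn1 and Tpm2 were also at background on the first P0 arrays, with Cnn1 at -7.19 and -7.49 and Tpm2 at -6.65 and -6.14. In T-LM P6 Cnn1 lay between -1.99 and 1.06 and Tpm2 between -1.53 and 0.56. The rises were at least 46.9-fold for Cnn1 (adjusted p = 0.00082) and at least 47.6-fold for Tpm2 (adjusted p = 0.000184). KPT P6 was lower, at -5.47 to -3.88 for Cnn1 and -4.62 to -3.66 for Tpm2, and was not called (adjusted p = 0.376 and 0.33). The K-LM P6 samples were at -4.58, -4.69 and -2.10 for Cnn1 and -4.07, -4.47 and -2.05 for Tpm2, with adjusted p = 0.0433 and 0.0196. A second, dimmer Tpm2 probe was called in K-LM (4.18, adjusted p = 0.00796).

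Tagln was the contractile gene that P0 measurably expressed, at -3.49 and -3.06. The repeat arrays of the same RNA gave -5.02 and -5.19. KPT P6 was between -1.62 and -0.71, T-LM P6 between 1.31 and 2.63, and K-LM P6 at -1.38, -1.91 and 0.37. The change of 5.16 ± 1.00 in T-LM was called (adjusted p = 0.00145), and those of 2.23 ± 1.51 in KPT and 3.50 ± 1.12 in K-LM were not (adjusted p = 0.488 and 0.0474). In KPT the P0 and P6 samples did not overlap (SD 0.302 and 0.379). The SE there also held the spread of the groups between them, such as KPT P5 (SD 3.08). Without the slide term, the K-LM P6 and P0 means on first arrays differed by 2.30.

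Over the 8 genes not chosen for their rise, 5 were called from P0 to P6 in T-LM (Acta2, Tagln, Cnn1, Myl9 and Tpm2), 2 in K-LM (Acta2 and Myl9) and 1 in KPT (Acta2), each of them higher at P6. Of all probes 7.34%, 5.54% and 3.81% were called in these comparisons. The median change of the 8 genes was 5.46, 3.28 and 2.28, against 0.02, 0.03 and -0.01 over all probes. All 10 genes passed the filter on dim probes. However, Tmsb4x, Lcp1, Acta2, Cnn1, Myl9 and Tpm2 passed through the passaged lines and not through the first P0 arrays. Of these, only Tpm2 in K-LM could also pass on repeat P0 arrays. The counts, medians and p-values are therefore descriptive. The 3 comparisons share the P0 samples. Without P0 replicate 1 or 2 the T-LM count was 3, and without P0 replicate 2 the KPT and K-LM counts were 0. Without P0 replicate 1 the K-LM count was 1, and without K-LM P6 replicate 3 it was 0. Fitted on the P0 and P6 samples alone, 5 of 8 genes were called in KPT and 7 in K-LM, and on the late slide alone 3 and 6. The share of all probes called in those other fits is not given here, so their counts cannot be set against it.

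**Figure D2:**
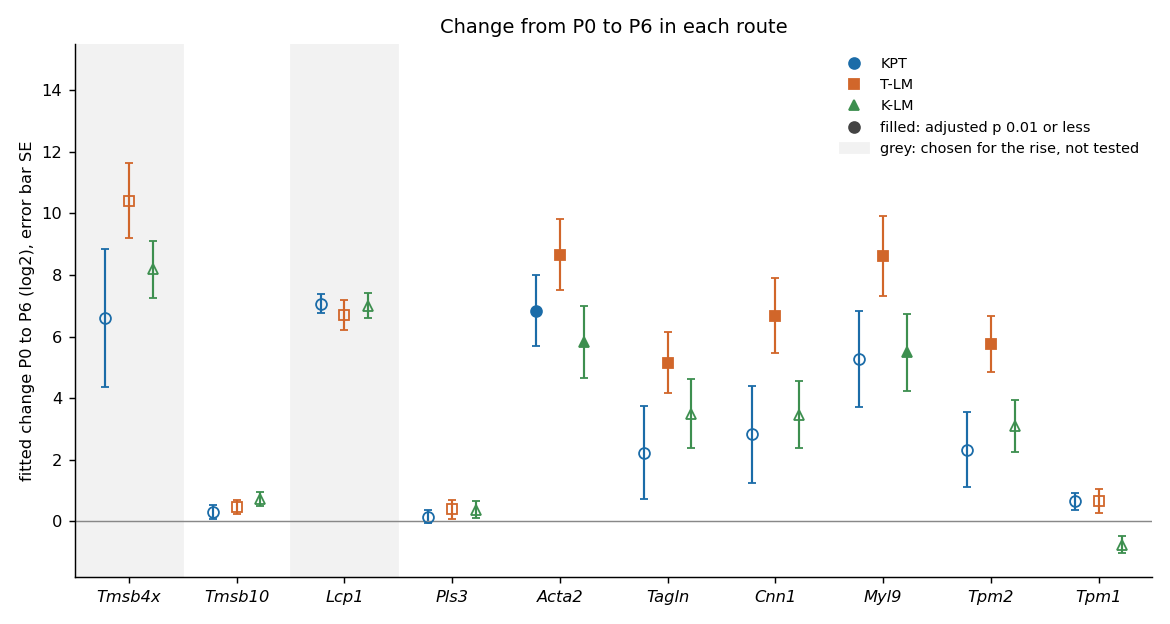
Fitted change from P0 to P6 (log2, vertical axis, bars are SE) of each gene in KPT, T-LM and K-LM, filled where the adjusted p was 0.01 or less and shaded grey for Tmsb4x and Lcp1, which were not tested. The contractile genes and Tpm2 sit highest in T-LM, with 5.16 to 8.66, while Tmsb10, Pls3 and Tpm1 lie between -0.75 and 0.73 in every route.

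Between P3 and P6 the same 5 genes were higher in T-LM. Tagln went from -3.42, -4.30 and -0.56 at P3 to 1.31 to 2.63 at P6, a change of 4.64 ± 0.88 (adjusted p = 0.00144). The changes of Acta2, Cnn1, Myl9 and Tpm2 were 4.65, 4.62, 5.60 and 4.08, with adjusted p = 0.00427, 0.00682, 0.0026 and 0.00174. In each of the 5 genes T-LM P3 replicate 5 was far above the other P3 samples, yet still below every P6 sample. Beside these 5 of 8 genes, 7.03% of all probes were called. The count fell to 0 without T-LM P3 replicate 2, to 2 without replicate 3 and to 3 or 2 without T-LM P6 replicate 1 or 2, and it was 1 with the RNA length index as a covariate. That index was -8.98 to -6.86 in T-LM P3 and -7.36 to -6.45 in T-LM P6.

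In KPT 0 of 8 genes and 0.82% of probes were called from P3 to P6, with 4740 probes at an unadjusted p under 0.05. The largest differences were in Myl9, Acta2 and Tagln, with 4.05, 3.30 and 3.11 (adjusted p = 0.132, 0.0965 and 0.234). In K-LM the contractile genes of P3 and P6 overlapped, and Myl9 differed by 1.38 (adjusted p = 0.416). Whether the P3 to P6 change differed between routes was tested directly, and 0 of 8 genes passed, beside 2.32% of all probes for T-LM against KPT, 1.09% for K-LM against KPT and 2.94% for K-LM against T-LM. The lowest adjusted p, for K-LM against T-LM, were 0.0373 for Tpm1, 0.0381 for Cnn1 and 0.0383 for Tpm2.

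At P6 the contractile genes separated T-LM from the other routes. Every T-LM sample was above every KPT sample in Acta2, Tagln, Cnn1, Myl9 and Tpm2. The share of all probes without overlap between these samples is not given here, so this cannot be set against it. T-LM was higher by 2.68 ± 0.49 in Tagln (adjusted p = 0.000597), 3.86 ± 0.59 in Cnn1 (adjusted p = 0.000115), 3.43 ± 0.55 in Myl9 (adjusted p = 0.000192) and 3.41 ± 0.43 in Tpm2 (adjusted p = 1.69e-05). Acta2 was higher by 1.81 ± 0.48 and missed the threshold (adjusted p = 0.0127). These 4 of 8 genes stand beside 11.3% of all probes. At P5 the T-LM minus KPT changes of the same 5 genes ran from 0.19 in Acta2 to 1.04 in Cnn1. There the samples overlapped and none of the 5 was called (adjusted p from 0.616 to 0.928 with limma). Leaving out T-LM P6 replicate 4 brought Acta2 past the threshold (2.14, adjusted p = 0.00614).

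K-LM P6 was below T-LM P6 in Acta2, by 2.85 ± 0.66 (adjusted p = 0.00481), and in Cnn1, Myl9 and Tpm2, with K-LM minus T-LM at -3.17, -2.96 and -2.70 (adjusted p = 0.0093, 0.0093 and 0.00344). With Tpm1 that made 5 of 8 genes, all lower in K-LM, where 11.7% of all probes were called. Tagln, at -2.30, was not called (adjusted p = 0.0192), and its group means without the slide term differed by -2.86. The calls rested on few samples, since the count fell to 1 without K-LM P6 replicate 1 or 2 and to 2 without T-LM P6 replicate 1 or 2. Within K-LM P6, replicate 3 was above the other 2 samples in Tmsb4x, Acta2, Tagln, Cnn1, Myl9 and Tpm2. Between KPT and K-LM only Tpm1 was called (1 of 8 genes, 15.3% of probes), and Acta2 differed by -1.04 ± 0.56 (adjusted p = 0.181).

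Tpm1 is spliced into many isoforms and was read by 5 probes, which did not move alike. The brightest, for transcript NM_001164249, was at 0.34 to 0.91 in KPT P6, 0.15 to 1.41 in T-LM P6 and -0.78 to -0.65 in K-LM P6, with P0 at -0.23 and 0.05. On this probe K-LM P6 lay below all other P6 samples, by 1.34 ± 0.22 against KPT (adjusted p = 0.00028) and 1.38 ± 0.26 against T-LM (adjusted p = 0.00116). The probe for NM_001164251 showed it most, with K-LM P6 at -6.31, -5.92 and -5.75 and the T-LM P6 samples between -3.96 and -2.64. Its K-LM minus T-LM change was -2.50 (adjusted p = 1.06e-05), its K-LM minus KPT change -1.78 (adjusted p = 5.34e-05) and its P0 to P6 change in K-LM -1.41 (adjusted p = 0.00271). The 2 probes for NM_001164248 were lower in T-LM P6 than in KPT P6, by 0.59 and 0.71 (adjusted p = 0.00219 and 0.000434), where the brightest probe differed by 0.04. They were lower in K-LM than in KPT by 0.93 and 1.01 (adjusted p = 0.000155 and 7.35e-05), but their K-LM minus T-LM differences of -0.34 and -0.30 were not called (adjusted p = 0.174 and 0.228). The probe for NM_001164255 was called in none of these, with K-LM minus KPT at 0.04 and K-LM minus T-LM at 0.06. The sequences of the probes, and therefore the exons they read, were not used here.

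**Figure D3:**
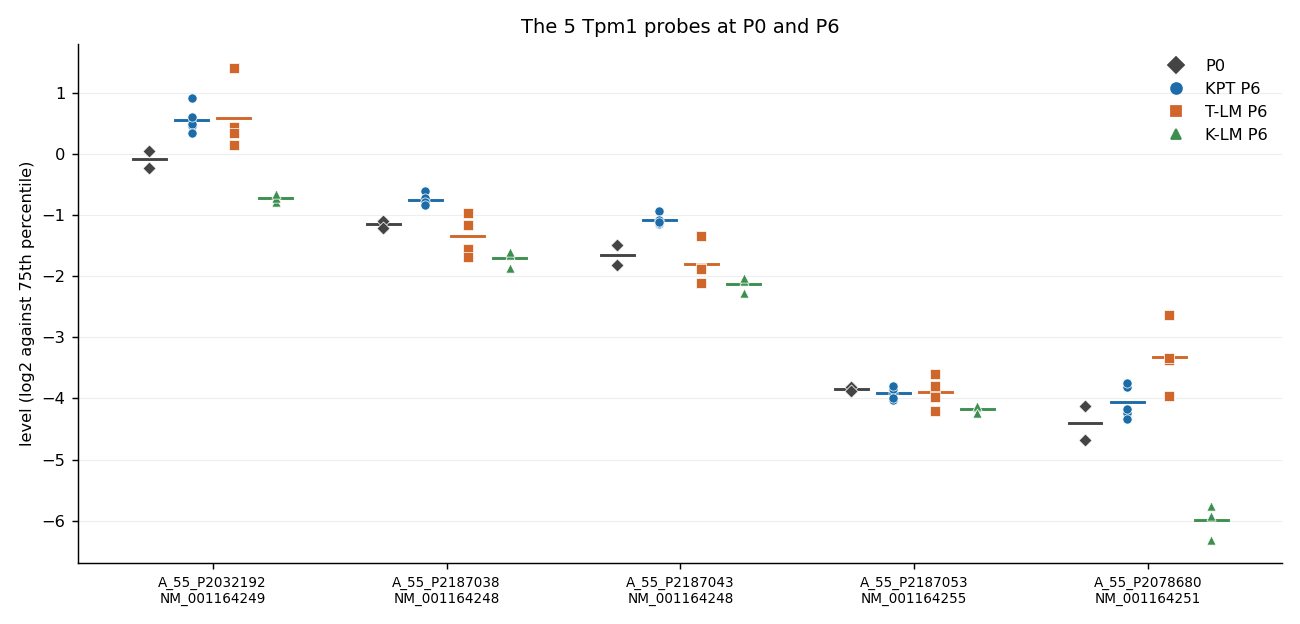
Levels of the 5 Tpm1 probes (log2 against the 75th percentile of the array, vertical axis), each with its transcript under its name (horizontal axis), in the P0 and P6 samples on their first arrays, with a short line at each group mean. The K-LM P6 points lie below the KPT P6 points by the widest gap in the probe for NM_001164251, and by the narrowest in that for NM_001164255, where K-LM P6 lay between -4.23 and -4.13, KPT P6 between -4.03 and -3.79 and the repeat arrays of KPT P6 on the late slide between -4.23 and -4.02.

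Within the set, 6 genes rose and fell together from sample to sample, and the other 4 followed them loosely at most. Over 65 samples the 15 pairs among Tmsb4x, Acta2, Tagln, Cnn1, Myl9 and Tpm2 had Pearson correlations from 0.893 to 0.981. As deviations from group means, over the 63 samples of groups with more than 1 sample, they were 0.811 to 0.971. The 30 pairs with Tmsb10, Lcp1, Pls3 or Tpm1, which include the pairs among those 4, lay between -0.252 and 0.453, and within groups between -0.571 and 0.533. Both lowest values were those of Tmsb10 with Pls3. Within groups Tpm1 correlated with the 6 genes at 0.285 to 0.533. These points share arrays, slides and ancestry, so the correlations describe this set of samples.

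The split within KPT P5 illustrates it. Tagln was at 4.20 and 3.63 in replicates 1 and 2 and at -1.65, -2.14 and -1.24 in replicates 3, 4 and 5. Cnn1 was at 2.07 and 0.01 against -4.68, -5.16 and -4.91. In Lcp1 the same replicates were at -0.68 and -0.94 against -1.03, -1.20 and -1.02, much closer together. T-LM P5 replicate 1 was apart in the same way, at 4.21 in Tagln against -0.02 to 0.95 in the other 5 samples, and T-LM P1 replicate 1 in the opposite way, at -7.24 in Myl9 against -1.12 to 0.90.

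Fibroblast markers moved with these 6 genes. The summed level of the 9 markers was -4.60 and -4.56 at P0, -1.24 to 0.20 in KPT P6, 0.99 to 2.77 in T-LM P6 and -0.06 to 1.57 in K-LM P6. In KPT P5 it was 4.72 and 2.78 in replicates 1 and 2 and -0.75, -1.21 and -0.82 in replicates 3 to 5, and in T-LM P5 it was 5.43 in replicate 1 and 0.58 to 1.58 in the others. In T-LM P1 it was -1.30 in replicate 1 and 2.50 to 3.98 in the others. Over 65 samples it correlated with Tagln at r = 0.886, with Cnn1 at 0.925, with Acta2 at 0.897, with Myl9 at 0.909, with Tpm2 at 0.916 and with Tmsb4x at 0.867, but with Lcp1 at 0.253. Within groups the value for Tagln was 0.911.

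The fibroblast markers did not move as one with the route. The mean of Pdgfrb at P6 was -3.87 in KPT, with T-LM at -3.76 and K-LM at -3.81, whereas Col3a1 was at -4.93, -1.46 and -5.09. Lum was well above background in 1 of 5, 4 of 4 and 0 of 3 samples. In KPT P4 replicate 5, where Tmsb4x was at background, Col1a1 was at -8.25, Tagln at -3.58 and Acta2 at -1.70. The vascular smooth muscle list, which itself contains Cnn1 and Actg2, summed to 2.12 and 2.27 at P0 and to 2.43 to 2.64, 2.37 to 2.96 and 2.62 to 2.75 in KPT, T-LM and K-LM at P6, with Myh11 detected in 1 T-LM P6 sample. Its brightest marker was Mcam, at 1.73 at P0 and 2.04, 1.85 and 2.28 at P6 in that order, followed by Smtn. Cnn1 and Actg2 averaged -0.66 or lower in these groups and weighed little in the sum. The part of fibroblasts or other cells in the levels of the 6 genes was not tested.

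**Figure D4:**
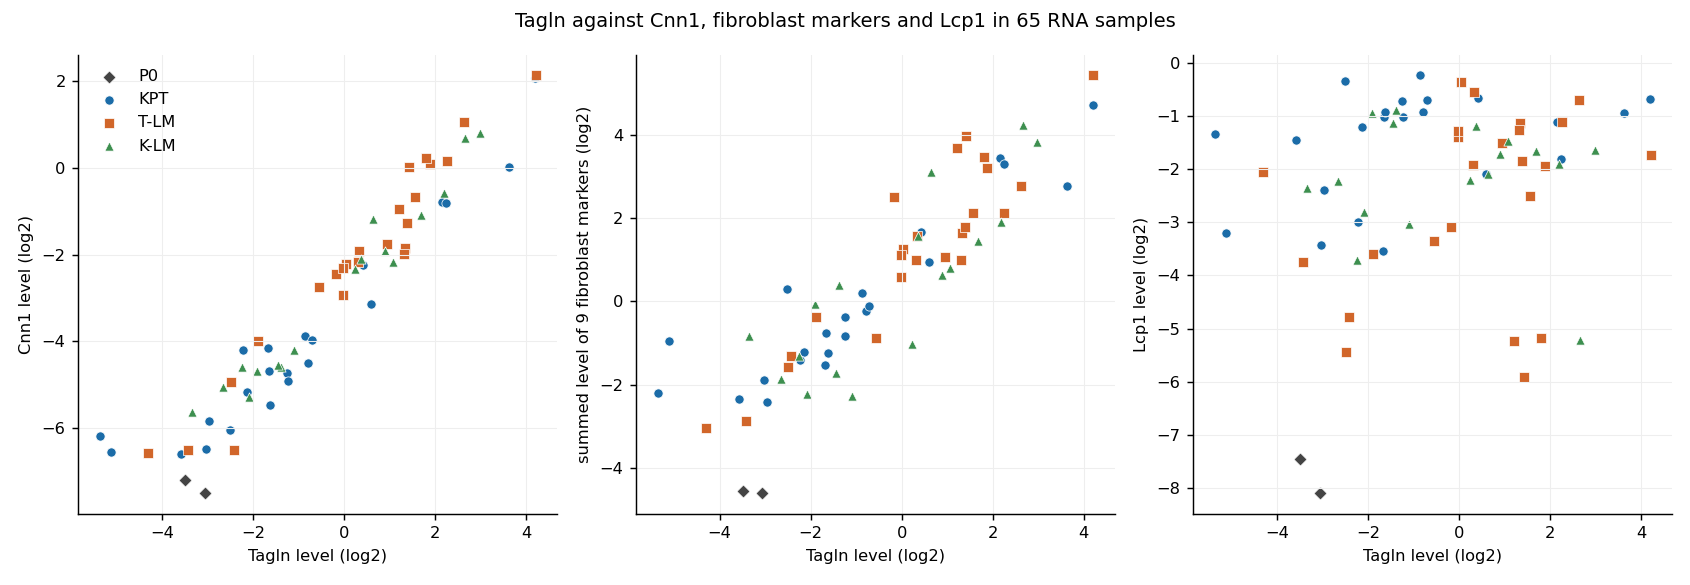
Tagln level (log2, horizontal axes) against the Cnn1 level, the summed level of 9 fibroblast markers and the Lcp1 level (vertical axes, log2), with 1 point for each of 65 RNA samples, coloured by route. Cnn1 and the fibroblast sum follow Tagln (r = 0.959 and 0.886), and Lcp1 does so loosely (r = 0.231), with both P0 samples below all others in Lcp1.

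Among 12374 symbols, other members of the set included, the genes most like Tmsb4x in level over 65 samples were Cyba (r = 0.976), Myl9 (0.955), Fn1 (0.952), Btg3 (0.942) and Fkbp10 (0.939). For Acta2 they were Myl9 (0.951), Acta1 (0.941), Ccn2 (0.933), Actg2 (0.929) and Gsto1 (0.928). For Tagln they were Tpm2 (0.962), Btg3 (0.960), Myl9 (0.960), Cnn1 (0.959) and Maged2 (0.959). Lcp1 had other and looser neighbours, Il2rg (0.878), Arap3 (0.871), Lurap1l (0.853) and Cryaa (0.836).

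Genes next to Tmsb4x and Lcp1 in the genome did not show their course. Tmsb4x lies on chromosome X at 167207093 to 167213479 in GRCm38.p6. Of its nearest probed neighbours, Tlr7 was measurable throughout, at -4.98 at P0 and at P6 at -5.30 (KPT), -4.77 (T-LM) and -5.77 (K-LM), and Tceanc, Egfl6 and Tlr8 were well above background in 1, 0 and 0 samples. Lcp1 lies on chromosome 14 at 75131105 to 75230842, and its neighbours Rubcnl, Lrrc63, Gm15628 and Cpb2 were detected in 0, 0, 0 and 1 of 65 samples.

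A wider list of 67 further actin genes was read from the same fits. From P0 to P6, 6 of 53 tested genes were higher and 1 lower in T-LM, 4 of 53 higher and 0 lower in K-LM. In KPT 4 of 52 were higher and 0 lower. The median changes were 0.30, 0.23 and 0.24 in T-LM, K-LM and KPT. The same comparisons called 7.34%, 5.54% and 3.81% of all probes. Both cytoplasmic actins, Actb and Actg1, were called in none of these, nor were the further tropomyosins and tropomodulins (3 tested). Called changes in KPT included those of Avil (advillin, a villin relative that caps and bundles filaments) at 2.80 (adjusted p = 1.22e-05) and Vcl (vinculin, a linker at adhesions) at 1.51 (adjusted p = 0.00226). Without P0 replicate 1, Vcl was not called (adjusted p = 0.121).

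In T-LM the largest were 2 muscle actins, which P0 did not express measurably, Actg2 (from -8.30 to -1.63 on average, adjusted p = 0.000682) and Acta1 (from -7.84 to -3.14, adjusted p = 0.000564), and Avil at 2.58 (adjusted p = 7.31e-05). Like the contractile genes, both entered the fit through the passaged lines. Acta1 and Actg2 encode proteins nearly identical to that of Acta2, and whether their probes share signal with it was not tested. Without either P0 sample both muscle actins missed the threshold, with adjusted p from 0.011 to 0.0176. In K-LM Avil rose by 2.66 (adjusted p = 1.04e-05) and Mylk (the myosin light chain kinase that acts on Myl9) went from -8.39, not well above background on the first P0 arrays, to -6.09 (adjusted p = 0.00772, also kept by the filter through passaged lines). Avil was thus called in each route.

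At P5 few genes of the wider list were called. Capzb (a filament capping subunit) was higher in T-LM than in KPT by 0.54 (adjusted p = 0.00911), the only one of 53 called, beside 5.27% of all probes. Against KPT, 4 of 53 were lower in K-LM and 0 higher, a share near the 7.41% of all probes, with Tln1 (talin 1, an integrin linker) at -1.20, Smtn (smoothelin) at -1.08 and Mrtfa (a cofactor of serum response factor) at -0.87 (adjusted p = 0.00324, 0.00331 and 0.00457). Against T-LM, 5 of 53 were lower in K-LM, beside 3.43% of all probes, with Tln1 at -1.28, Smtn at -1.02 and Myh9 (non-muscle myosin heavy chain) at -0.91 (adjusted p = 0.00361, 0.00641 and 0.0059). With the RNA length index as a covariate these K-LM calls were lost, with adjusted p between 0.0157 and 0.103.

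At P6 calls ran both ways. In T-LM 5 of 53 were higher and 5 lower than in KPT, beside 11.3% of all probes. In K-LM 3 of 53 were higher and 1 lower than in KPT, beside 15.3% of all probes. Against T-LM, 4 of 53 were higher and 3 lower in K-LM, beside 11.7% of all probes. Between KPT and T-LM at P1, 0 of 54 were called, beside 0.0173% of all probes. From P3 to P6, 6 of 53 were higher in T-LM, 3 of 53 in K-LM and 1 of 52 in KPT, and 0 were lower. The shares of all probes called were 7.03%, 5.87% and 0.82%.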

How the data were processed

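Agilent one-colour mouse arrays (Cy5, 62976 spots, 55681 probes besides controls) were deposited as scanner tables. Per the file headers they hold median signal intensity, local background and processed signal intensity. The deposited series table holds log2 values, which equalled quantile-normalized log2 raw median signal within 0.1066. Here log2 of the processed signal was averaged over the spots of a probe, and the 75th percentile of each array over the 12219 probes well above background on all 70 arrays was subtracted. Symbols came from the array files and RefSeq transcripts (28026 probes named, 27655 not). The genome build of the array design is not given in the sources used here.

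Probes entered a fit if 2 or more of its arrays had them well above background, in limma 3.58.1 (R 4.3.3, statmod 1.5.0), with a 2-sided moderated test and Benjamini-Hochberg adjustment over all of them. The P0, P3 and P6 values came from 1 fit per route (P0 and P2 to P6, for KPT and T-LM on first arrays). Fits with K-LM P6 had a late-slide term and treated repeat arrays of 1 RNA sample as a random block (correlation from 4000 probes). The P6, P5 and P1 comparisons were fitted with the groups of that passage, with P0 added at P6 and P1. The fit was tested on simulated data. Changes are the second group minus the first.

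The members, lists and tests were chosen with earlier results of these data known. Every comparison was read for all 10 genes, but not every change is printed. Of the wider actin list, the 3 called genes with the largest change are named per P0 to P6 and P5 comparison. For Tmsb4x, Lcp1, Acta2 and Tagln the 5 symbols of highest correlation are named, and for Tmsb4x and Lcp1 the neighbours on each side. Some genes that these rules pick are not reported here. Alternatives were the deposited values, normexp (offset 50, on median signal), other scaling, filters, a floor on dim values, slide and replicate blocks, the RNA length index, the late slide alone, fewer groups, other probes and leaving out each replicate. T-LM P1 replicate 1 is titled without its route and was placed there by another label. Replicate numbers were not used to pair the samples in the main fits.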

Additional observations from a re-analysis of the deposited data

Results flagged for a closer look

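In groups of 4 to 10 samples, the gap of the highest or lowest sample to its nearest neighbour was compared with the whole range of the group. Of 90 such groups (10 genes, all routes and passages of that size), 11 held a sample apart from the rest, where chance gives about 5%, and the 6 co-varying genes are not independent of each other.

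T-LM P5 replicate 1 stood above the other 5 samples in Tmsb4x (4.07, others -0.68 to 0.45), Acta2 (4.02, others -0.57 to 0.47), Tagln (4.21, others -0.02 to 0.95), Cnn1 (2.13, others -2.94 to -1.76), Myl9 (3.11, others -1.90 to -0.49) and Tpm2 (1.04, others -2.71 to -1.90). The summed fibroblast markers were at 5.43 in this sample and at 0.58 to 1.58 in the others. T-LM P1 replicate 1, the sample whose title gives no route and whose group is therefore less sure, was not well above background and lay below the other 4 samples in Tmsb4x (-7.30, others 0.21 to 1.61), Acta2 (-6.86, others -0.24 to 1.84) and Myl9 (-7.24, others -1.12 to 0.90). Lcp1 was lower in T-LM P4 replicate 1 (-2.50) than in the other 3 samples (-1.94 to -1.85). Pls3 was lower in T-LM P5 replicate 2 (-0.77) than in the other 5 (-0.27 to 0.01).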

How the results depend on the processing

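All values here are counts of called genes, of 8 (of 10 at P5 and P1), unless said otherwise. The share of all probes called under each alternative is not given, so these counts cannot be set against it. With dim probes filtered on all arrays of the fit, 4 of the 8 genes could be tested, and the P0 to P6 counts were 1 in T-LM and 0 in KPT and K-LM, that of P3 to P6 in T-LM was 1, and those at P6 were 1 for KPT against T-LM and 1 for T-LM against K-LM. With no such filter the count for T-LM against K-LM at P6 was 2, that for P3 to P6 in K-LM 0 and that for KPT against K-LM at P5 0. On the deposited values and with normexp the K-LM counts were 1 from P0 to P6 and 0 from P3 to P6, and with a floor on dim values the count was 1 from P0 to P6 in K-LM and 3 for T-LM against K-LM at P6. Fitted on the compared groups alone, the counts were 5, 7 and 3 for P0 to P6 in KPT, P0 to P6 in K-LM and P3 to P6 in KPT, 1 and 0 for P3 to P6 in T-LM and K-LM, 3 for T-LM against K-LM at P6 and 0 for KPT against K-LM at P5. The late slide alone gave 3 genes from P0 to P6 in KPT and 6 in K-LM, and without a slide term 1 in K-LM. With the RNA length index as a covariate the counts were 1 and 0 for P3 to P6 in T-LM and K-LM and 0 for KPT against K-LM at P5. The cause was not tested.

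Leaving out 1 sample at a time gave 3 to 5 genes (T-LM), 0 to 2 (K-LM) and 0 to 1 (KPT) from P0 to P6, in the same order 0 to 5, 0 to 1 and 0 from P3 to P6, 4 to 5, 1 and 1 to 6 at P6 for KPT against T-LM, KPT against K-LM and T-LM against K-LM, and 1, 1 and 0 to 1 at P5. Without T-LM P5 replicate 2, Pls3 was called between T-LM and K-LM.

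Samples with the same replicate number were not treated as pairs in the main fits. Correlations of their deviations from the group means were between -0.396 and 0.764. No comparison of 3 or more pairs had all of them over 0.1. KPT against T-LM at P1 came nearest, at 0.0939 to 0.552 over 5 pairs. With the replicate number as a block the count was 1 for P0 to P6 in K-LM, 0 for P3 to P6 in K-LM, 1 for T-LM against K-LM at P6 and 0 for KPT against K-LM at P5, and other counts stayed within 1.5 times.

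Across the single-gene changes, 1219 alternative values kept direction and side of the threshold, 165 fell short of it, 25 passed it, 28 descriptive values moved by more than the spread between samples, and 2 turned sign, both for Tpm1 with the probe for NM_001164255 (0.04 against KPT and 0.06 against T-LM). Low signal limits P0, where 6 of 10 genes were at background on the first arrays.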
